A study of Mus musculus with 4 samples.

Results

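The cytosolic ribosomal protein genes were examined here as a group of 76 genes among the 31053 genes of each count matrix. They were chosen by symbol alone: names beginning with Rpl, Rps or Rplp followed by a number and, in some, a closing letter or digit, without the S6 kinase genes. Of the 76, 46 encode proteins of the large subunit and 30 of the small subunit. All 76 passed the filter on low counts in every cell class tested. The rule leaves out some other genes that contribute to the ribosome, among them Rpsa, Fau and Rack1, and these are described separately.

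The cells were CD45.2+ leukocytes sorted alive from lung tissue. All mice were C57BL/6J and 10 weeks old. The genotype of the WT group was Lmna-flox/flox Vav1-cre-/-, and that of the knockout group Lmna-flox/flox Vav1-cre+/-, so that both groups carried the floxed allele and the knockout mice also carried Cre. The labels name 2 mice and 2 libraries of each genotype. Lmna encodes the nuclear lamins A and C, and the Vav1 promoter drives Cre in blood-forming cells and their descendants.

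Each cytosolic ribosome joins a small subunit, which reads the messenger RNA, to a large subunit, which forms the peptide bond. Ribosomal proteins are mostly present in a single copy per particle, except the acidic stalk proteins, and their mRNAs begin with a run of pyrimidines, the TOP motif, which couples their translation to growth signals through mTOR. Resting lymphocytes hold much of their mRNA in these transcripts, whereas mature neutrophils make few new ribosomes.

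The start of the RefSeq transcript (GRCm38.p6) shows that motif in some of the members the results turn on. Each sequence runs from 15 bases before the annotated start to 15 bases from it, on the transcribed strand, and capitals mark a pyrimidine run that opens with C at the start. Rpl38, Rpl35, Rps27 and Rps21 had lower counts in knockout cells, Rps28 and Rpl41 did too and have no such run, Rps15a was among the members furthest above myeloid cells in lymphoid cells, and Rps6, the S6 kinase substrate, differed little with genotype.
Rpl38 (chr11:114668565-114668594, plus strand): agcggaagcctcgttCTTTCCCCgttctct
Rpl35 (chr2:39005117-39005146, minus strand): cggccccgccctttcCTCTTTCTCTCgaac
Rps27 (chr3:90213634-90213663, minus strand): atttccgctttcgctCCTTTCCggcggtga
Rps21 (chr2:180257364-180257393, plus strand): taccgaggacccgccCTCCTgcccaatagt
Rps28 (chr17:33824548-33824577, minus strand): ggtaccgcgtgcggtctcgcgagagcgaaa
Rpl41 (chr10:128549154-128549183, minus strand): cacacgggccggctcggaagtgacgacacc
Rps6 (chr4:86857353-86857382, minus strand): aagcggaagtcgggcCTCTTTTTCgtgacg
Rps15a (chr7:118116133-118116162, minus strand): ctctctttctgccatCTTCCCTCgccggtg
The search asked for C at the start followed by 4 bases, each C or T, on the transcribed strand alone. Of the 56 members with a matched start, 13 (23.2%) held such a run exactly at it, against 813 of 27025 genes (3.01%). With a run allowed to open within 5 bases of the annotated start, 27 of the 56 members (48.2%) and 5718 genes (21.2%) held one. Among the members that were lower in knockout cells, Rpl41, Rpl39, Rps28, Rpl37, Rpl37a, Rpl36a, Rps26 and Rpl31 had no such run exactly at the annotated start, and a further annotated start of Rps21 had none either.

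The 4 libraries held 3860 to 4322 cell barcodes and 21780914 to 27045250 UMIs (unique molecules counted), of which 19.8% to 21.7% were of the 76 members. After filtering, 3488 to 3817 cells per library were kept, and pairs of libraries shared 2 to 7 barcodes. Cells were clustered without the ribosomal protein genes, and 9 clusters or cluster pairs with at least 25 cells in every library were named from marker genes. They are B cell-like, CD4 T cell-like, CD8 T cell-like, regulatory T cell-like, NK cell-like, alveolar macrophage-like, classical monocyte-like, nonclassical monocyte-like and neutrophil-like classes, and the suffix is left out below. The regulatory T cell class was led by Ctla4, Rora and Foxp3 and also carried markers of group 2 innate lymphoid cells. The library WT 2 stood apart in one respect, in that 12.9% of its cells were T cell precursors, against 0.393% to 0.659% in the others, and those cells entered no comparison. The alveolar macrophage class was thin in the knockout libraries, with 52 and 34 cells against 223 and 232 in WT. Lmna itself was at 373 and 335 TMM-scaled CPM (counts per fixed total of UMIs) in the WT and 58.8 and 79.8 in the knockout alveolar macrophages (edgeR log2 difference -2.36, adjusted p = 1.07e-09), the 1 class in which it passed the test. In NK and regulatory T cells its differences of -1.60 and -1.41 did not pass (adjusted p = 0.0643 and 0.24 by edgeR), in B cells and classical monocytes the groups overlapped (-0.03 and 0.12), and in the other 4 classes its counts were below the filter. Which part of the gene Cre removes is not given in the sources used here, so counts of 3' ends may not register the deletion.

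**Figure D1:**
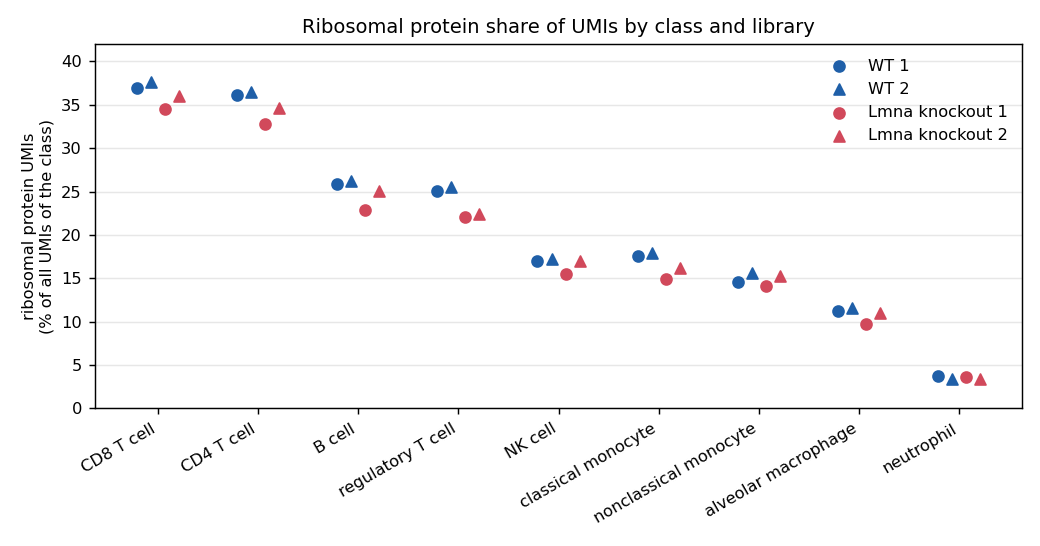
Share of each class's UMIs that were of the 76 ribosomal protein genes (y axis, percent), 1 point per library, by class (x axis) and genotype. CD8 T cells lay highest and neutrophils lowest in every library, and the knockout points lay below the WT points without overlap in 6 of the 9 classes.

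Ribosomal protein mRNA made up very different shares of the 9 classes. Over the 4 libraries the 76 members held 36.3% ± 1.32 of UMIs in CD8 T cells and 34.98% ± 1.69 in CD4 T cells (SD, n = 4). B cells followed at 24.99% ± 1.51 and regulatory T cells at 23.8% ± 1.77. NK cells held 16.7% ± 0.77, classical monocytes 16.7% ± 1.41 and nonclassical monocytes 14.9% ± 0.70, and each of these overlapped with its neighbour in this order over the 4 libraries. Alveolar macrophages held 10.9% ± 0.83. Neutrophils held 3.53% ± 0.17, far under every library of every other class. CD8 and CD4 T cells, and B and regulatory T cells, also overlapped as pairs.

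Within B cells the share was not uniform. The main cluster of 3102 cells held 26.1% ribosomal protein UMIs, and a cluster of 424 cells led by Vpreb3 and Iglc1 held 17.2%. Their depth and mitochondrial shares were close, with medians of 3715 and 3695 UMIs per cell and 7.13% and 7.46% mitochondrial counts.

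Comparing 4 lymphoid classes (B, CD4 T, CD8 T and NK cells) with 4 myeloid classes (both monocytes, alveolar macrophages and neutrophils), all 76 members were higher in the lymphoid classes (edgeR quasi-likelihood test, library as a block, Benjamini-Hochberg adjusted p under 0.05). Of the 10863 genes tested, 43.9% were higher and 37.1% lower. The median log2 difference was 1.27 for the members and 0.11 for all genes. These levels are TMM-scaled. Without TMM scaling, an alternative chosen after the data were seen, the median of all genes moved by 0.23 here, by 0.34 between NK and T cells, by 0.21 in alveolar macrophages and by -0.79 in neutrophils, and level differences are best read against those shifts.

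Rpl12, a large subunit protein near the base of the stalk where elongation factors dock, had the highest difference, 2.66 on the log2 scale (SE 0.04), or 6.33-fold. Its level was 6389 ± 267 CPM, unscaled, in CD4 T cells and 6039 ± 324 in CD8 T cells (SD, n = 4), then 3576 ± 44.7 in regulatory T cells and 3397 ± 196 in B cells. NK cells followed at 1637 ± 171, and classical monocytes and alveolar macrophages lay together at 955 ± 25.2 and 942 ± 47.0. Nonclassical monocytes had 794 ± 60.7 CPM and neutrophils 97.7 ± 35.3, so that T cells and neutrophils were separated without overlap. The 4 neutrophil libraries had 82.7 and 68.3 CPM in WT and 149 and 91.3 in knockout.

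Rps20 and Rps15a, small subunit proteins, were higher in the lymphoid classes by 1.98 and 1.87 on the log2 scale, and Rpl3, which lies close to the catalytic centre of the large subunit, by 1.84. At the other end stood Rps9, a small subunit protein that helps to keep decoding accurate, with a log2 difference of 0.08 (adjusted p = 0.025). That call was lost without WT 1 (0.07) or knockout 2 (0.06), and with classes drawn from each cell's own markers (0.04). Rps27a, made as a fusion of ubiquitin with a small subunit protein, differed by 0.31, and Rps25 and Rpl37 by 0.62 each.

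The members of known special roles were all higher in the lymphoid classes as well. Of the stalk proteins, Rplp0 differed by 1.19, Rplp1 by 1.56 and Rplp2 by 1.03 on the log2 scale. Rpl5 and Rpl11, which form a particle with 5S RNA that can bind Mdm2, differed by 1.68 and 1.20. Rps6 differed by 1.28, Rps3, which also has roles in DNA repair, by 1.31, and Rps19, the gene most often mutated in Diamond-Blackfan anaemia, by 1.71. Rpl22, a member whose loss impairs T cell development, differed by 1.30, and Rpl13a by 1.78. Among the X-linked members Rps4x differed by 1.71, Rpl10 by 0.76, Rpl39 by 1.36 and Rpl36a by 1.72.

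NK cells were below the CD4 and CD8 T cells for all 76 members, while 24.9% of the 10863 genes were lower and 26.9% higher. The median was -1.41 for the members and 0.00 for all genes on the log2 scale. Rpl12 (-2.28), Rps19 (-2.27), Rps20 (-2.10) and Rps28 (-1.84) differed most, while Rpl10 (-0.75), Rpl27 (-0.90) and Rpl41 (-0.93) were among those that differed least.

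Alveolar macrophages were below the mean of the other classes for 75 of 76 members (29.6% of genes lower) and above it for 1 (39.6% higher), with medians of -0.85 for the members and 0.06 for all genes. The 1 call above was lost without knockout 2, when 0 members were above. Of the members below, Rplp2 (-0.21), Rpl7a (-0.28) and Rps2 (-0.31) differed little, and none of these 3 passed without TMM scaling (-0.01, -0.07 and -0.11), where 72 members were below. Rps27 had the widest gap (-1.99, or 3.97-fold lower), and Rpl21 (-1.47) and Rpl27a (-1.39) were also among the lowest.

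Neutrophils were below the mean of the other classes for 75 members (40.1% of genes lower) and above it for 1 (33.6% higher). The median was -1.97 for the members and -0.31 for all genes. Rpl3 had the widest gap, -3.90 on the log2 scale or 14.9-fold lower, with 76.6 ± 25.7 CPM in neutrophils and 3727 ± 534 in CD8 T cells (SD, n = 4). Rpl12 (-3.71), Rpl10a (-3.69) and Rps20 (-3.49) were close to it. The 1 member above was Rps9, at +0.36, a direction that turned without TMM scaling, where it was at -0.44 and all 76 members were below. Rpl37 (-0.24), Rps27a (-0.33) and Rps27 (-0.54) had the smallest gaps of the others, and without TMM scaling they were at -1.04, -1.13 and -1.34.

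**Figure D2:**
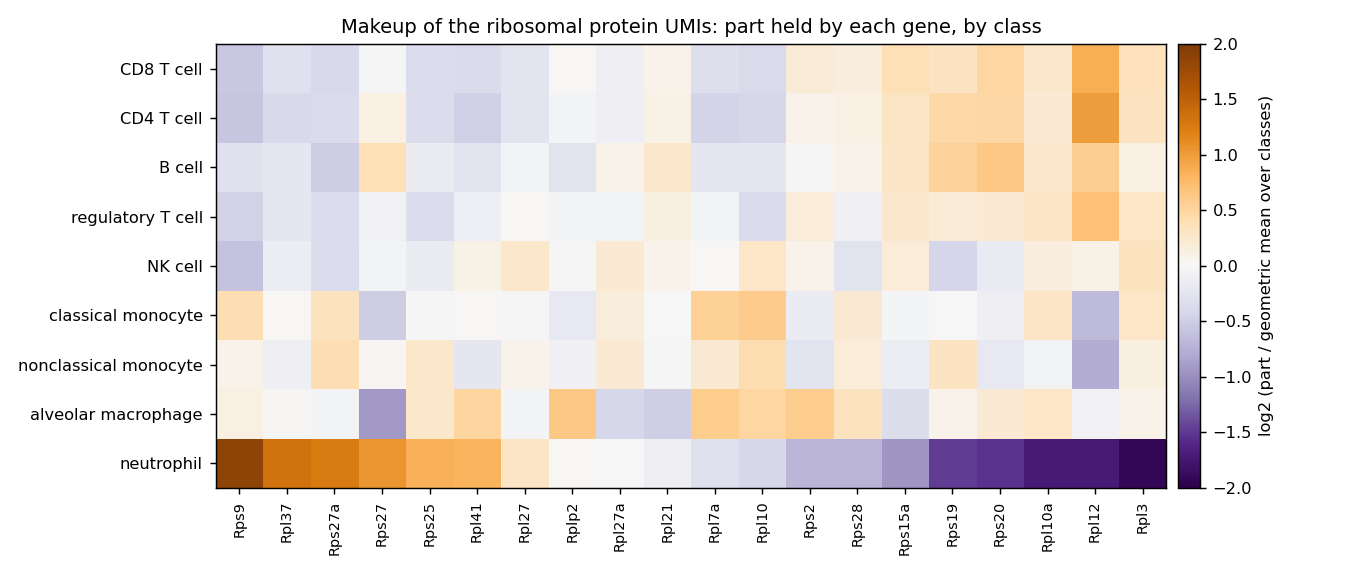
Part of the ribosomal protein UMIs held by each of 20 members (x axis) in each class (y axis), as the log2 ratio (colour) of its mean over the 4 libraries to the geometric mean of the classes. The neutrophil row runs from Rps9, Rpl37 and Rps27a, which take a larger part, to Rpl10a, Rpl12 and Rpl3, which take a smaller one.

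To separate the level of the whole group from the proportions inside it, each member was also compared as a part of the ribosomal protein UMIs. On that scale the neutrophil set was the most unequal. In neutrophils 21 members took a larger and 40 a smaller part than in the other classes. The same test called 61% of genes higher and 8.97% lower, but genes outside the group are there divided by ribosomal protein UMIs, so those shares mostly restate the difference in level.

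Rps9 made up 6.46% and 7.42% of ribosomal protein UMIs in the WT and 7.92% and 6.99% in the knockout neutrophils. Every neutrophil library thus lay above every library of the other classes, whose means were 1.32% in CD4 T cells, 1.60% in B cells, 2.12% in alveolar macrophages and 2.63% in classical monocytes. The log2 difference was 2.11, or 4.31-fold. As a part of all UMIs Rps9 stood at 2539 ± 226 CPM in neutrophils and 4590 ± 211 in CD4 T cells (SD, n = 4), so that its level was lower there than in T cells while its part was larger.

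Rps27a took 4.39% and 4.72% in the WT and 5.66% and 5.43% in the knockout neutrophils, against a mean of 1.47% in B cells (log2 difference from the other classes 1.42). Rpl37 differed by 1.51 and Rps27, a zinc-binding small subunit protein, by 1.21. In the other direction, Rpl3 took 0.18% and 0.22% in the WT and 0.31% and 0.15% in the knockout neutrophils, against a mean of 1.03% in CD8 T cells (log2 difference -2.16). Rpl12, Rpl10a and Rps20 differed by -1.97, -1.95 and -1.74. Neutrophils were also the shallowest class, with medians of 2068 to 2280 UMIs per cell and 68.5 to 82 ribosomal protein UMIs in a cell of median depth. Free RNA was gauged by Igkc, an antibody light chain gene, which stood at 77.2 to 171 CPM in neutrophils and 9410 to 11517 in B cells, and its part in the neutrophil values was not tested.

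The lymphoid set differed from the myeloid set by 31 members with a larger and 22 with a smaller part (11.4% of genes higher and 70.2% lower, on the same scale). Rpl12 (1.45), Rps20 (0.77), Rps15a (0.66) and Rpl3 (0.62) led one side, and Rps9 (-1.13), Rps27a (-0.90), Rps25 (-0.59) and Rpl37 (-0.59) the other. In CD4 T cells Rpl12 took 1.70% of ribosomal protein UMIs in each WT library and 2.00% and 1.93% in the knockout libraries. NK cells had a mean of 0.99%, classical monocytes 0.58%, nonclassical monocytes 0.53% and neutrophils 0.28%.

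In alveolar macrophages 34 members took a larger and 15 a smaller part than in the other classes (72.6% of genes higher and 8.74% lower). The stalk protein Rplp2 (0.72), Rpl7a (0.65) and Rps2 (0.62) were among the highest, and the stalk protein Rplp1 was raised too (0.60). Rps27 was the lowest (-1.07), and Rpl21 (-0.54) and Rpl27a (-0.46) were also low. For Rplp0, the scaffold of the stalk, the difference was -0.02 (adjusted p = 0.807), so that the 3 stalk members were not raised together.

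Between NK and T cells, 22 members took a larger and 12 a smaller part in NK cells (80.7% of genes higher and 3.75% lower). Rpl10 (0.69), which completes the large subunit late in its assembly, Rpl27 (0.54) and Rpl41 (0.52) were among the higher. Rpl12 (-0.83), Rps19 (-0.82), Rps20 (-0.65) and Rps28 (-0.39) were lower.

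The next comparison was between the knockout and the WT libraries. In 6 of the 9 classes the summed share of the 76 members was lower in both knockout libraries than in both WT libraries. In B cells it was 25.9% and 26.2% in WT and 22.9% and 25.02% in knockout, a difference of -2.11 percentage points. CD4 T cells had 36.1% and 36.4% against 32.7% and 34.6% (-2.61), and CD8 T cells 36.9% and 37.6% against 34.6% and 35.98% (-1.99). Regulatory T cells had the widest gap, with 25.1% and 25.5% against 22.1% and 22.5% (-3.03). Drawn from each cell's own markers, that class held 24 cells in WT 2, under the 25 required, and was not compared.

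Among myeloid classes, classical monocytes had 17.6% and 18.0% in WT and 14.9% and 16.2% in knockout (-2.25), and alveolar macrophages 11.2% and 11.6% against 9.68% and 11.04% (-1.03). The groups overlapped in NK cells (16.9% and 17.3% against 15.5% and 16.9%, a difference of -0.87), in nonclassical monocytes (14.5% and 15.7% against 14.1% and 15.3%, -0.40) and in neutrophils (3.73% and 3.40% against 3.62% and 3.38%, -0.06). With 2 libraries against 2 an exact two-sided permutation test cannot go below p = 0.333, which was its value in the 6 classes without overlap, and it was 0.667 in the other 3. With classes drawn from each cell's own markers the alveolar macrophage groups overlapped (a difference of -0.59). The NK cell groups did not overlap (exact permutation p = 0.333) with those classes (-0.92), under a stricter cell filter (-1.12) or without mitochondrially encoded genes (-0.95). Knockout 1 had the lowest share of the 4 libraries in 8 of the 9 classes.

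Gene by gene, the difference lay in a small part of the group. Of 684 pairs of a member and a class, 91 were lower and 1 was higher in knockout cells (edgeR quasi-likelihood test on summed counts, adjusted over all genes of the class), while 0.687% of all gene and class pairs were lower and 0.477% higher. The 91 pairs came from 14 members, and 61 members were not called in any class. B cells had 10 of 76 members lower (0.335% of all genes), CD4 T cells 12 (0.423%), CD8 T cells 11 (0.465%), NK cells 13 (0.561%) and regulatory T cells 11 (0.331%). Classical monocytes had 10 (0.434%), nonclassical monocytes 9 (0.445%), neutrophils 4 (0.192%) and alveolar macrophages 11 (2.68%).

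The median log2 difference of the members was between -0.12 and 0.13 in the 9 classes, so that most of the group lay near the scale's centre. The 1 member that rose was Rps2 in alveolar macrophages (3.24% of all genes rose there). No member rose in the other 8 classes by edgeR or by DESeq2, and 0 to 14 members in each were higher at an unadjusted p under 0.05. Of all genes, 0.021% rose in B cells, 0.0343% in CD4 T cells, 0.0581% in CD8 T cells, 0.11% in NK cells and 0.0788% in regulatory T cells. In classical monocytes 0.0703% rose, in nonclassical monocytes 0.129% and in neutrophils 0.297%.

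These counts depended on single WT libraries. Of the 684 pairs, 33 were lower without WT 1, 54 without WT 2, 67 without knockout 1 and 119 without knockout 2. Without WT 1 no member passed in CD4 T, CD8 T or regulatory T cells or in classical monocytes, and 2 did in B cells, while 12 did in NK cells. Without WT 2 no member passed in regulatory T cells and 2 did in classical monocytes, and without knockout 1 3 passed in CD8 T cells and 2 in neutrophils. Of the 92 calls, 62 missed the threshold without WT 1, 43 without WT 2 and 29 without knockout 1, and none without knockout 2. None of them changed sign in any of these fits, in each of which the lone library of a genotype is assumed to vary like the rest.

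**Figure D3:**
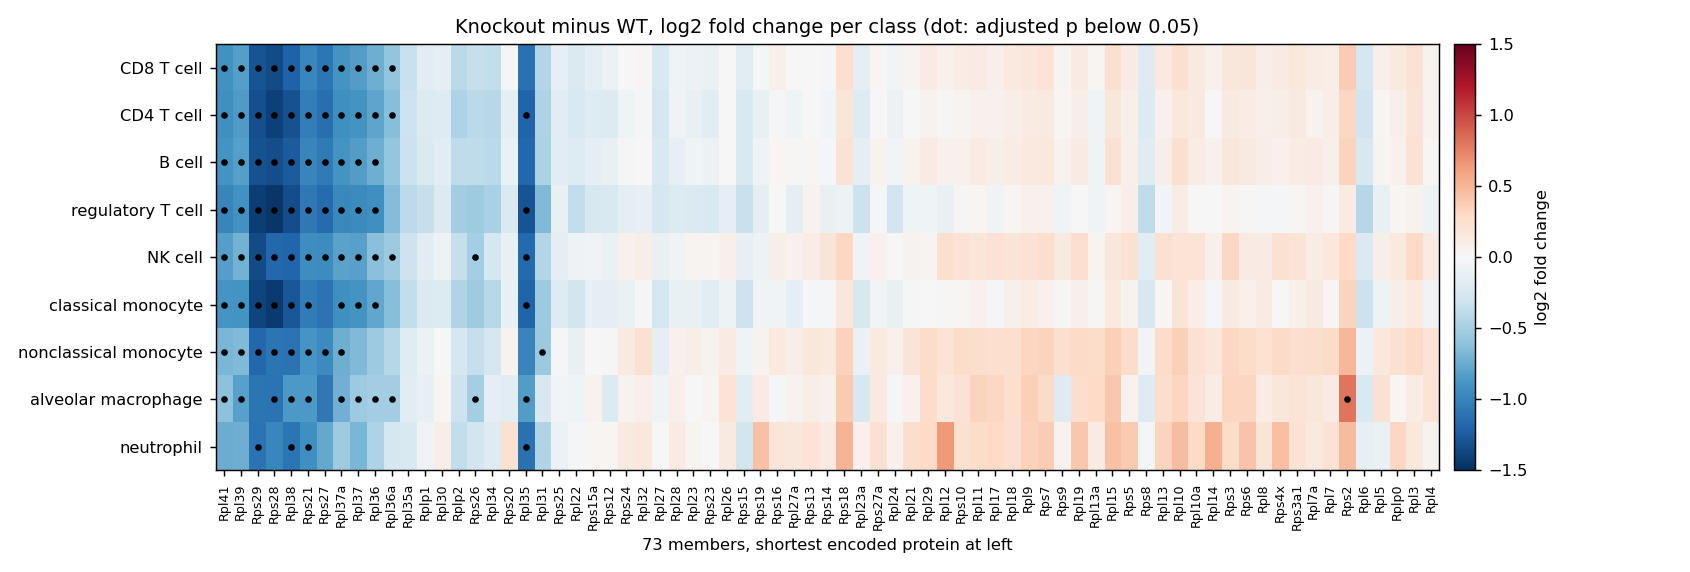
Log2 difference between knockout and WT (colour) for 73 members (x axis, ordered by the length of the encoded protein) in the 9 classes (y axis), with a dot where edgeR's adjusted p is under 0.05. The 11 members at the left and Rpl35 are negative in every class, and Rps2 in alveolar macrophages is the 1 positive cell with a dot.

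The lower members were mostly those that encode the shortest proteins. Ordered by protein length, the 11 shortest run from Rpl41 with 25 residues to Rpl36a with 106, and the next, Rpl35a, has 110. Where to divide the order was decided after the differences were known, so what follows on the 11 is a description. They are Rpl41, Rpl39, Rps29, Rps28, Rpl38, Rps21, Rps27, Rpl37a, Rpl37, Rpl36 and Rpl36a, 7 of the large and 4 of the small subunit. All 99 of their pairs with a class had both knockout libraries below both WT libraries, against 20% of all gene and class pairs, and 82 of the 99 passed the test. Of the 585 pairs of the other 65 members, 9 were lower (6 of Rpl35, 2 of Rps26 and 1 of Rpl31) and 1 was higher.

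Across the 76 members the mean log2 difference over classes rose with protein length, with a Spearman's rho of 0.82, and with the length of the shortest principal mRNA, with a rho of 0.55. These are descriptions across genes counted in the same cells and libraries, and the genes are not independent replicates.

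**Figure D4:**
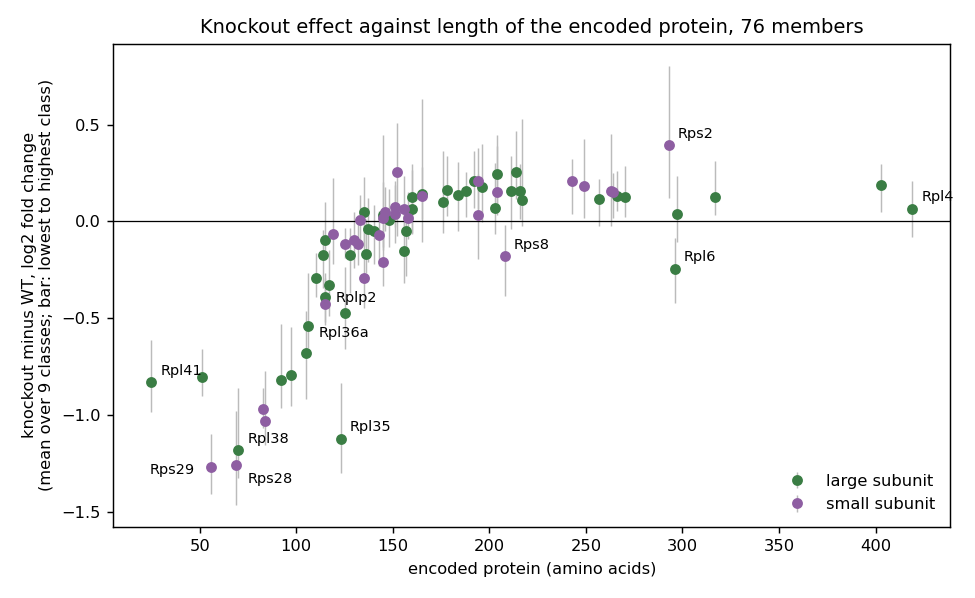
Mean log2 difference between knockout and WT over the 9 classes (y axis) against the length of the encoded protein in residues (x axis), 1 point per member, coloured by subunit, with bars from the lowest to the highest class. The 11 members of 106 residues or fewer all lie below -0.5, and Rpl35 lies with them at 123 residues.

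As a share of UMIs, the 11 were lower in knockout cells throughout. In CD8 T cells they held 7.62% and 6.66% in WT and 3.29% and 4.14% in knockout. In CD4 T cells they held 7.59% and 6.51% against 3.15% and 4.04%, and in B cells 5.73% and 4.93% against 2.39% and 3.11%. Neutrophils had 1.02% and 0.87% against 0.50% and 0.61%, and alveolar macrophages 2.28% and 2.13% against 0.99% and 1.44%. The knockout libraries lay below the WT libraries in all 9 classes, by 0.39 to 3.45 percentage points.

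The summed share of the other 65 members overlapped between genotypes in 7 classes, with differences from -0.61 points in regulatory T cells to 0.98 in nonclassical monocytes. In CD8 T cells it was higher in knockout, with 29.3% and 31.0% in WT and 31.3% and 31.8% in knockout, and in neutrophils also, with 2.71% and 2.53% against 3.12% and 2.77%.

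**Figure D5:**
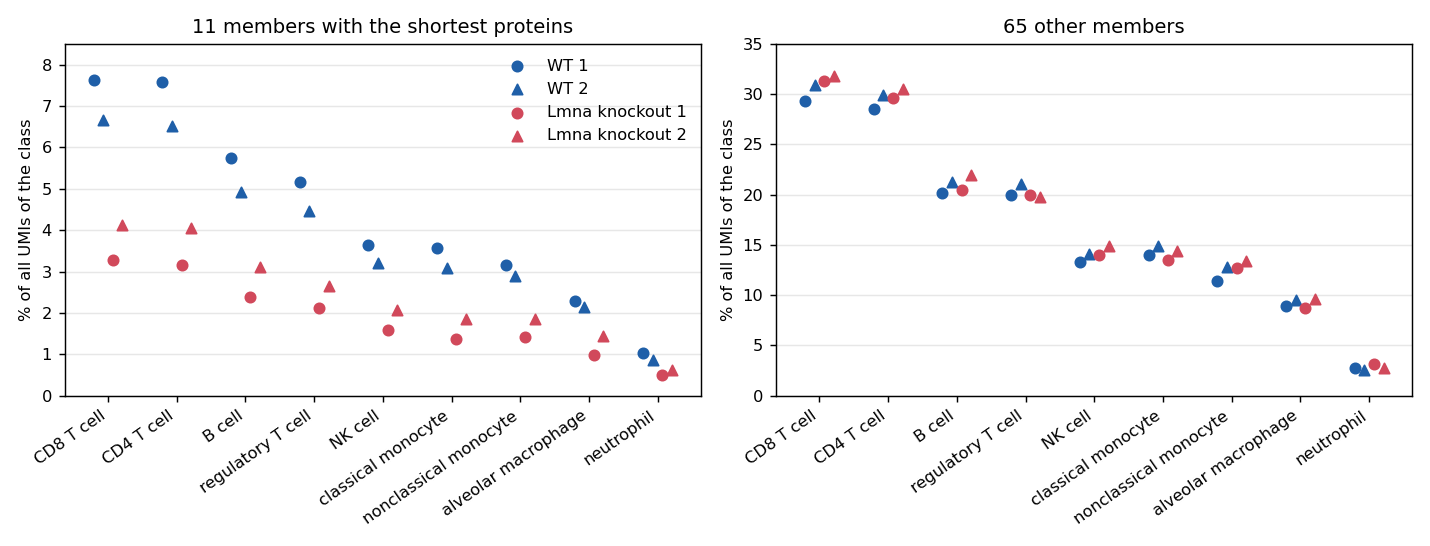
Share of UMIs (y axis, percent) of the 11 members with the shortest proteins and of the other 65 members, 1 point per library, by class (x axis) and genotype. The 11 are lower in knockout without overlap in all 9 classes, and the other 65 overlap in 7.

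Rps29, a zinc-binding protein of the small subunit's head (mm10 chromosome 12, 69157722 to 69159186, minus strand), had the lowest mean difference, -1.27 over the classes, and passed the test in 8 of 9. In NK cells it stood at 5315 and 4435 TMM-scaled CPM in WT 1 and WT 2 and at 1620 and 2238 in knockout 1 and knockout 2. Both knockout libraries lay well below both WT libraries (log2 difference -1.34, SE 0.14, adjusted p = 4.74e-06 by edgeR, 2.53-fold lower). B cells had 8744 and 6584 against 2553 and 3628 (-1.31, SE 0.18, adjusted p = 0.00707 by edgeR), and even in neutrophils, with 1331 and 1112 against 520 and 612, the groups did not overlap (-1.11, SE 0.17, adjusted p = 0.017 by edgeR). WT 1 was the highest and knockout 1 the lowest library each time.

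Rps28, a small subunit protein at the exit of the messenger RNA channel (chromosome 17, 33819027 to 33824562, minus strand), was lower in 8 classes with a mean of -1.26. In regulatory T cells it had 4206 and 3213 in WT and 1234 and 1460 in knockout (-1.46, SE 0.15, adjusted p = 0.000479 by edgeR). CD8 T cells had 7137 and 5313 against 2230 and 2693 (-1.34, SE 0.14, adjusted p = 5.76e-05 by edgeR). The WT libraries differed from each other by more than the knockout libraries did, and the groups stayed apart. The same pattern held in B cells (-1.33), classical monocytes (-1.43) and nonclassical monocytes (-1.10). Kank3 overlaps Rps28 on the opposite strand, and the strand setting of the counting is not given in the sources used here.

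Rpl38, a large subunit protein known for its role in the translation of Hox mRNAs during development (chromosome 11, 114668524 to 114672331, plus strand), was lower in all 9 classes, with a mean of -1.18. CD8 T cells had 5324 and 4259 in WT and 1827 and 2294 in knockout (-1.22, SE 0.13, adjusted p = 5.76e-05 by edgeR). Alveolar macrophages had the smallest gap, with 1824 and 1565 against 734 and 1133 (-0.86, SE 0.18, adjusted p = 0.0211 by edgeR). In neutrophils it stood at 634 and 509 against 222 and 312 (-1.10). Its start opens with one of the pyrimidine runs printed above.

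Rps21, a small subunit protein (chromosome 2, 180257377 to 180258445, plus strand), was the other member lower in all 9 classes, with a narrow range of -1.07 to -0.86. CD4 T cells had 7928 and 7032 in WT and 3140 and 4143 in knockout (-1.04, SE 0.13, adjusted p = 0.000675 by edgeR). Rps27 (chromosome 3, 90212522 to 90213651, minus strand) was lower in 6 classes, and in CD4 T cells had 11101 and 9653 against 3800 and 5662 (-1.13, SE 0.17, adjusted p = 0.00988 by edgeR). For both, the knockout libraries lay below the WT libraries, with knockout 1 the lower.

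Rpl41, the shortest ribosomal protein (chromosome 10, 128548114 to 128549305, minus strand), and the X-linked Rpl39 (37082520 to 37085402, minus strand), which lines the exit tunnel of the large subunit, each passed in 8 classes. In CD4 T cells Rpl41 had 5916 and 5452 in WT and 2662 and 3354 in knockout (-0.92, SE 0.12, adjusted p = 0.000915 by edgeR). Rpl39 had 7658 and 7432 in WT and 3540 and 4810 in knockout CD4 T cells (-0.85, SE 0.13, adjusted p = 0.00242 by edgeR). The WT libraries were close together and the knockout libraries below them.

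The remaining 4 of the 11 are large subunit proteins with smaller differences. Rpl37a, lower in 8 classes, had 2982 and 3012 in WT and 1554 and 2082 in knockout alveolar macrophages (-0.72, SE 0.14, adjusted p = 0.00171 by edgeR). Rpl37, lower in 7, had 2776 and 2630 against 1250 and 1817 in NK cells (-0.82, SE 0.14). Rpl36, lower in 7, had 2524 and 2508 against 1424 and 1821 in NK cells (-0.63, SE 0.13). The X-linked Rpl36a, lower in 4, had 906 and 956 against 579 and 694 there (-0.55, SE 0.13, adjusted p = 0.0332 by edgeR), and of the 11 it had the mean difference nearest to 0 (-0.54). In each of these the groups did not overlap.

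Rpl35 departed from the order by length. It sits beside the exit of the peptide tunnel (chromosome 2, 39001580 to 39005624, minus strand, where Wdr38 and Arpc5l overlap it on the other strand), and its protein has 123 residues. NK cells had 887 and 935 in WT and 329 and 480 in knockout (-1.17, SE 0.15, adjusted p = 1.82e-05 by edgeR), and neutrophils 116 and 121 against 45.1 and 63.9 (-1.12, SE 0.20, adjusted p = 0.0315 by edgeR). The WT libraries nearly coincided, and knockout 1 was lowest. Its mean difference was -1.12, and it passed in 6 classes.

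Rps26, which contacts the messenger RNA upstream of the start codon, was lower in NK cells, with 1792 and 1774 in WT and 1136 and 1372 in knockout (-0.51, SE 0.12, adjusted p = 0.045 by edgeR), and in alveolar macrophages (-0.51). Rpl31 was lower in nonclassical monocytes, with 386 and 411 against 262 and 280 (-0.56, SE 0.11, adjusted p = 0.0245 by edgeR). In both the groups were apart, but by less than for the shortest members.

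Rps2, a small subunit protein near the entry of the messenger RNA channel (chromosome 17, 24718116 to 24721929, plus strand, overlapped by the antisense gene Snhg9), was the member that rose. Alveolar macrophages had 1063 and 1223 in WT and 1970 and 2017 in knockout (+0.80, SE 0.12, adjusted p = 0.000192 by edgeR, 1.74-fold higher). The groups were far apart, although the knockout libraries held 52 and 34 such cells. In the other 8 classes its difference ran from 0.12 to 0.49, with no call.

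The remaining members of special role were not called in any class. The stalk proteins had mean log2 differences of 0.13 (Rplp0, adjusted p 0.612 to 0.976 over the classes by edgeR), -0.17 (Rplp1, 0.483 to 0.974) and -0.39 (Rplp2, 0.157 to 0.564). Rplp2 had both knockout libraries below both WT libraries in 9 of 9 classes all the same, and Rpl22 in 5 and Rplp1 in 4. Of all gene and class pairs, 20% lay so. Other members of special role lay the other way. Both knockout libraries were above both WT libraries in 7 classes for Rps3, 6 for Rps6 and Rpl10 and 5 for Rps4x. The share of all pairs lying above was not counted. Rpl5 and Rpl11 of the 5S particle had 0.04 and 0.16, Rps6 0.18, Rps3 0.21 and Rps19 0.02. Rpl22 had -0.18, Rps27a 0.07 and Rpl13a, part of an interferon-linked translational control complex, 0.07. Of the X-linked members, Rps4x had 0.16 and Rpl10 0.26. These values do not show that the genes were unchanged, since the lowest adjusted p among them was 0.129 (Rpl11) and 2 libraries a genotype set the precision.

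Genes outside the group were examined by mRNA length in the same fits. Among genes of at least 50 scaled CPM on average, the 29 of 400 bases or fewer had a median log2 difference of -0.54, with 46 of 164 gene and class pairs lower and 0 higher. Those of 400 to 500 bases had a median of -0.21, those of 500 to 600 -0.06, those of 600 to 800 0.09, those of 800 to 1200 0.11 and longer ones -0.01. The short genes outside the group included Atp5k (mean -1.11) and the mitochondrial mt-Nd4l (-1.03) and mt-Nd3 (-0.86, lower in 8 classes). Malat1, a nuclear RNA, was lower in knockout alveolar macrophages, with 15226 and 11898 scaled CPM in WT and 7234 and 8763 in knockout (-0.76, adjusted p = 0.00164 by edgeR), and passed in no other class. Its unscaled CPM were nevertheless lower in both knockout libraries than in both WT libraries in every class but neutrophils. In scaled CPM 20% of all gene and class pairs lay so. In NK cells Malat1 had 28158 to 36485 in WT and 23657 to 24861 in knockout. When a smooth trend of the other genes with mRNA length was removed, 86 of the 684 pairs were lower and 1 higher, and 78 of the 92 original calls were kept. That curve was fitted over wide spans of length with few short genes, so it may follow the steep short end poorly. How much of the shift of the shortest mRNAs it removed was not tested, and the kept calls do not separate the members from that shift. What the shift of short mRNAs has in common with genotype, library preparation or RNA quality was not tested.

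Whether the knockout effect in alveolar macrophages differed from the mean effect in the other classes was tested for each gene in 1 fit. Of the 76 members, 2 had a higher and 1 a lower effect there, against 1.61% and 2.48% of the 6819 genes tested. Rps2 had an effect of +0.80 in alveolar macrophages and a mean of 0.34 elsewhere (interaction 0.38, SE 0.08, adjusted p = 0.00332 by edgeR). Rpl38 had -0.86 against -1.22 (0.26, SE 0.08, adjusted p = 0.0364 by edgeR), so that it fell less there. Rps9 had -0.20 against 0.06 (-0.34, SE 0.08, adjusted p = 0.00507 by edgeR). These calls also rested on single libraries. That of Rps2 was lost without WT 2 (0.34), that of Rps9 without WT 1 (-0.26) or knockout 1 (-0.18), and that of Rpl38 without WT 1 (0.26), WT 2 (0.32) or knockout 2 (0.18). The median interaction was 0.01 for the members and -0.06 for all genes.

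The ribosomal genes that the naming rule misses behaved unevenly. Of 84 gene and class pairs of these 12 genes, 7 were lower and 1 was higher. Rps27l, a p53-induced relative of Rps27, rose in alveolar macrophages from 362 and 367 in WT to 670 and 727 in knockout (+0.94, SE 0.13, adjusted p = 3.74e-05 by edgeR), while Rps27 itself had its lowest level of the 9 classes there. In the same class Mdm2 (+0.87) and Cdkn1a (+1.16), targets of p53, rose by edgeR as well. They were 2 of 7 genes listed for the ribosomal protein checkpoint of p53, and 3.24% of all genes rose there. DESeq2 called 1 of the 61 gene and class pairs of that list. Mdm2 had 61.7 and 51.1 scaled CPM in WT and 124 and 81.5 in knockout. A p53 response was not tested. Rpl3l, a muscle relative of Rpl3, was lower in nonclassical monocytes, with 56.5 and 57.5 against 17.0 and 22.4 (-1.54).

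Among other genes of the translation machinery few pairs passed. No pair passed in edgeR or DESeq2 among 59 of elongation factors (6 at an unadjusted p under 0.05), 144 of other TOP mRNAs (20), 33 of snoRNA hosts (6), 148 of regulators of TOP translation (18) or 53 of ribosome quality control (3). Of 276 pairs of ribosome biogenesis genes 1 was lower by edgeR, Gnl3 in alveolar macrophages (-0.66), where 2.68% of all genes were lower. Of 188 pairs of initiation factors, Eif4e rose in alveolar macrophages (+0.72; 3.24% of all genes rose) and Eif3j1 fell in NK cells (-0.77; 0.561% fell) by edgeR. DESeq2 called none of the pairs of ribosome biogenesis genes, initiation factors or mitochondrial ribosomal proteins. Of 641 pairs of mitochondrial ribosomal proteins, 4 were higher and 1 was lower, with a median of 0.10, and the 4 were all in alveolar macrophages, where 76 were tested and 3.24% of all genes rose, among them Mrps24 (+0.75).

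Between classes these lists followed the cytosolic members in part. Ribosome biogenesis genes were higher in the lymphoid classes for 30 and lower for 1 of 35 (43.9% and 37.1% of all genes), and in neutrophils 32 were lower and 3 higher (40.1% and 33.6% of all genes), with a median of -2.30 against -0.31 for all genes. Elongation factors were higher in the lymphoid classes for 5 and lower for 1 of 7, and mitochondrial ribosomal proteins for 50 and 13 of 77, against the same shares of all genes. Eef1a1, which brings aminoacyl-tRNA to the ribosome, was lower in neutrophils by a log2 difference of -2.75, Rack1 by -2.84 and Rpsa by -3.57. Fau, a ubiquitin-like fusion with a small subunit protein, was higher there with TMM scaling (+0.60) and lower without it (-0.20). Rpl3l was higher in neutrophils on either scale (+5.72 and +4.99), and in alveolar macrophages too (+4.49 and +4.77). It was lower in the lymphoid than in the myeloid classes (-6.48 with TMM scaling). Rpl3 was at its lowest in neutrophils but at only -0.81 in alveolar macrophages.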

How the data were processed

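Per the labels, live CD45.2+ lung cells were run with the Chromium 3' v3 kit. The authors deposited raw UMI counts per gene and barcode, made with Cell Ranger 3.0.2 on mm10 with Seurat 3.0.0 also named, per the submitters' processing notes. How reads shared with pseudogenes were counted is not given in the sources used here, so members with near-identical copies are uncertain. Barcodes under 200 genes or over 10% mitochondrial counts were dropped, doublets were scored against simulated doublets and removed (103 to 124 per library), and Leiden clusters (leidenalg 0.10.2), built without ribosomal protein genes, were named from markers. Counts summed per library and class went through filterByExpr and TMM scaling into the robust quasi-likelihood test of edgeR 4.0.16 (R 4.3.3; Benjamini-Hochberg adjustment at 0.05), which was checked on simulated data. Scaled CPM use TMM, and SDs are over libraries. Fits between classes used library as a block. Coordinates and lengths come from GENCODE M21 on mm10, with which all 76 members matched.

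Members and lists were chosen with earlier results of these data known. Named genes were the up to 3 members per class and direction with the smallest p past the threshold, fixed members of special role, the 4 highest and 4 lowest between classes, and up to 3 of each other list. Rpl37, Rpl36, Rpl36a, Rps26 and other genes that complete a set of 14 or fewer were added after their values were seen. Alternatives were DESeq2 1.42.0, other scalings, filters, doublets kept, classes from each cell's own markers, a replicate block and leaving out each library. The length correction, the crossed block and the fit between classes without TMM scaling were chosen after seeing the data. Replicates are separate mice per the labels, which name no shared litter or day. The values of some genes are not reported here.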

Additional observations from a re-analysis of the deposited data

Results flagged for a closer look

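In 3 members the knockout effect in the alveolar macrophage class differed from the mean effect of the other 8 classes by a test of that difference itself (edgeR, adjusted over 6819 genes). These 2 higher and 1 lower of the 76 members stand beside 1.61% and 2.48% of all genes, so their number is near the background. Rps2 differed by 0.38 on the log2 scale, Rpl38 by 0.26 and Rps9 by -0.34. The knockout libraries held 52 and 34 cells of that class. Rpl38 missed the threshold with doublets kept, scaled to ribosomal protein UMIs, with classes from each cell's own markers and without WT 1, WT 2 or knockout 2. Rps9 missed it with classes from each cell's own markers and without WT 1 or knockout 1, and Rps2 without WT 2.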

How the results depend on the processing

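Of the members named in the text, none with a called knockout difference reversed its sign under the alternatives run. Between classes, Rps9 in neutrophils turned from +0.36 to -0.44 without TMM scaling, which left 0 members higher there. The uncalled share differences of neutrophils and nonclassical monocytes changed sign, in neutrophils to 0.06 with doublets kept and 0.00353 with classes from each cell's own markers, and in both when single libraries were left out. Of the 684 pairs, 91 were lower and 1 was higher; the counts were 99 and 1 with DESeq2, 91 and 1 with doublets kept, 119 and 3 with no count filter, 92 and 1 scaled on other genes, 92 and 7 scaled to ribosomal protein UMIs, and 86 and 1 with the length correction. Classes from each cell's own markers gave 69 and 2 of 608 pairs in 8 classes, and the stricter cell filter 48 and 0 of 380 in 5 classes.

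By class, DESeq2 called 8 members lower in NK cells. With no count filter 9 were lower in neutrophils, and 1 was higher in CD8 T cells and 1 in nonclassical monocytes. Scaled to ribosomal protein UMIs, 1 was lower in neutrophils and 1 was higher in each of B, CD4 T, CD8 T and NK cells and both monocytes. Classes from each cell's own markers gave 2 higher in alveolar macrophages. The share difference was -1.44 points in CD4 T cells under the stricter cell filter, and in regulatory T cells -3.42 without mitochondrially encoded genes and -2.43 as the median over cells. For the interaction, 1 member was higher with doublets kept, 4 scaled on other genes and 1 scaled to ribosomal protein UMIs, and 8 were lower with doublets kept and 0 in classes from each cell's own markers. The cause was not tested.

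With a replicate block, 69 pairs were lower and 3 higher: 0 lower in B cells, 2 in NK cells, 1 in classical monocytes and 9 in neutrophils, and 1 higher in CD8 T cells and 1 in nonclassical monocytes. The numbers were not treated as pairing, since same-numbered differences correlated over genes at -0.03 to 0.14 by class and the labels name nothing shared. Over the members alone those differences correlated at -0.57 to -0.32 by class. With the numbers crossed, 91 pairs were lower, 0 of them in neutrophils and 3 in nonclassical monocytes.

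Leaving out 1 library at a time, the members lower ranged from 2 to 12 in B cells, 0 to 16 in CD4 T cells, 0 to 12 in CD8 T cells, 9 to 17 in NK cells, 7 to 13 in alveolar macrophages, 0 to 16 in classical monocytes, 2 to 10 in neutrophils, 3 to 13 in nonclassical monocytes and 0 to 13 in regulatory T cells. The members higher ranged from 0 to 1 in NK cells, 1 to 2 in alveolar macrophages, 0 to 2 in neutrophils and 0 to 7 in nonclassical monocytes, and for the interaction 0 to 3 were higher and 0 to 2 lower. The share differences ranged from -3.19 to -1.02 points in B cells, -3.54 to -1.68 in CD4 T cells, -2.70 to -1.28 in CD8 T cells, -1.57 to -0.16 in NK cells, -1.71 to -0.36 in alveolar macrophages, -2.91 to -1.59 in classical monocytes, -0.23 to 0.10 in neutrophils, -0.99 to 0.18 in nonclassical monocytes and -3.25 to -2.82 in regulatory T cells. The makeup counts ranged from 18 to 26 higher and 10 to 18 lower in NK cells, 27 to 37 and 13 to 21 in alveolar macrophages, 28 to 36 and 20 to 25 in the lymphoid classes, and 19 to 22 and 38 to 42 in neutrophils.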
